A study of Sus scrofa with 20 samples.

Results

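A set of 5 genes of the collagen fibril were followed through the testis transcriptomes of 20 boars: COL1A1 (ENSSSCG00000017581), COL1A2 (ENSSSCG00000015326), COL3A1 (ENSSSCG00000016034), COL14A1 (ENSSSCG00000005997) and BMP1 (ENSSSCG00000009620). They are 5 of the 21306 genes listed in the files of both breeds and 5 of the 14636 genes tested over all boars. COL1A1, COL1A2 and COL3A1 encode the chains of the fibrillar collagens type I and type III. COL14A1 encodes a fibril-associated collagen that sits on the fibril surface and is not itself fibrillar, so the name fibrillar collagen holds for 3 of the 4 collagen genes. BMP1 encodes the protease that cuts the C-terminal propeptide from procollagens.

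The genes were chosen by their difference between boars with high and low sperm DFI: the study listed COL3A1 and BMP1 in both breeds, COL1A1 in Duroc, and COL1A2 and COL14A1 in Landrace. Their high and low DFI values are therefore given as a description, without a test. Tests were kept for what did not choose them directly. These were the difference between the breeds, the ratios of the genes within a library, and the deviations of single boars from the mean of their own group. The breed differences and the ratios are not fully free of the choice, because COL1A1 was listed in Duroc only, and COL1A2 and COL14A1 in Landrace only.

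DFI, the DNA fragmentation index, is the percentage of sperm with fragmented DNA, measured by flow cytometry. RNA came from a testis piece of 5 Landrace boars with low DFI (0.62% to 1.7% in the labels), 4 Landrace boars with high DFI (5.58% to 8.04%), 5 Duroc boars with low DFI (1.05% to 1.13%) and 6 Duroc boars with high DFI (4.13% to 5.63%). All were commercial artificial insemination boars with no treatment named, picked for their extreme DFI and sampled at slaughter, with 1 library per boar. The labels gave no age for any boar, and boars are named here by breed, DFI group and replicate number.

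Type I and type III collagen form mixed fibrils in loose connective tissue. In the testis they lie in the wall of the seminiferous tubule, the interstitium and the capsule, and are made by fibroblasts and peritubular cells rather than by germ cells. Procollagen chains fold in the endoplasmic reticulum, are secreted, lose their propeptides to BMP1 and to ADAMTS enzymes, assemble into fibrils together with type V collagen and small proteoglycans, and are crosslinked by lysyl oxidases. Type I collagen is normally made of alpha 1 and alpha 2 chains in a fixed proportion, so that COL1A1 and COL1A2 are transcribed together in most tissues. BMP1 also processes lysyl oxidase and other matrix proteins.

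Total counts per library ranged from 18086448 (Landrace high 1) to 51782156, and the normalization factors from 0.958 to 1.10. Markers of the testis were present in every library, such as the spermatid gene TNP1 at 3099 to 5606 CPM (counts scaled to the library total and by the trimmed mean of M values, TMM) and the Leydig cell gene CYP17A1 at 362 to 6684 CPM. The sample titles of 6 Landrace boars (low 1, low 2 and all 4 high) share a number range that the other 3 Landrace boars and all Duroc boars lack, and what it stands for was not stated. At high DFI this range and the breed cannot be told apart. Libraries are whole tissue, so that fewer cells of a type and less RNA per cell cannot be told apart either.

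The type I and type III collagen genes stood higher in high DFI boars of both breeds, with fitted levels 1.78 to 2.47 times those of low DFI boars. COL14A1 was 1.66 times as high in Landrace and 1.57 times in Duroc, and BMP1 was 1.76 times as high in Landrace and 1.39 times in Duroc. In Landrace the high and low DFI boars did not overlap for any of the 5 genes, whereas in Duroc only BMP1 was free of overlap. Since this contrast chose the genes, these values describe the choice. Of all genes compared, 4.43% in Landrace and 2.03% in Duroc separated their high from their low DFI boars in this way, with the high boars on top.

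**Figure D1:**
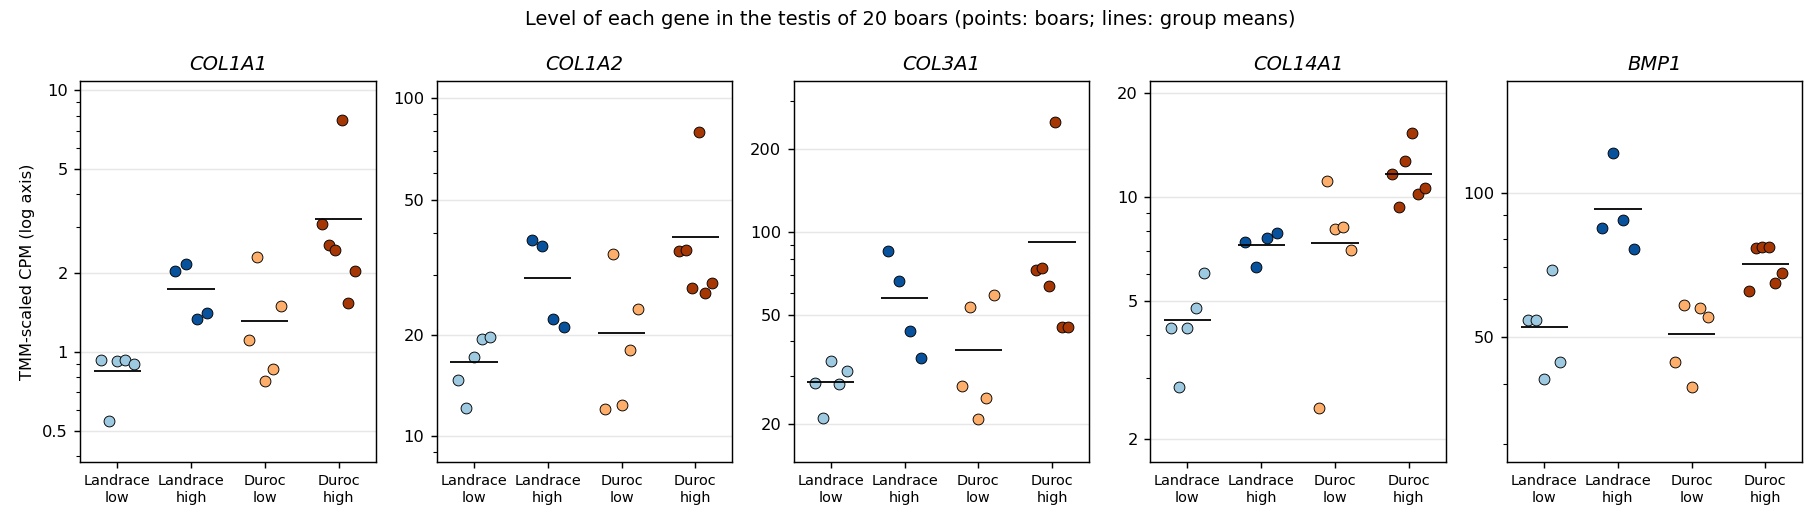
Level of COL1A1, COL1A2, COL3A1, COL14A1 and BMP1 in TMM-scaled CPM on a log axis, with 1 point per boar and a line at the mean of each breed and DFI group. Duroc high 4 stands far above the other Duroc high boars for COL1A1 (7.67 CPM), COL1A2 (79.7 CPM) and COL3A1 (251 CPM), and Duroc low 1 lies below the other Duroc low boars for COL14A1 (2.46 CPM).

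COL3A1 encodes the single chain of type III collagen. It was at 28.2, 21.0, 34.0, 27.8 and 31.1 CPM in the Landrace low boars and at 85.5, 66.3, 43.6 and 34.8 CPM in the Landrace high boars. In the Duroc low boars it was at 27.6, 53.5, 20.8, 24.9 and 58.9 CPM, and in the Duroc high boars it ranged from 44.9 to 251 CPM with a median of 68.3 CPM. The lowest Landrace high boar lay just above the highest Landrace low boar, while Duroc low 2 and Duroc low 5 fell within the range of the Duroc high boars. The log2 fold change of high against low DFI was 1.02 (SE 0.24) in Landrace and 1.31 (SE 0.48) in Duroc. Without Duroc high 4 the Duroc value was 0.69, and without Landrace high 1 the Landrace value was 0.76.

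COL1A2 encodes the alpha 2 chain of type I collagen. Its levels were 14.7, 12.1, 17.1, 19.5 and 19.6 CPM in Landrace low, 38.1, 36.6, 22.2 and 21.1 CPM in Landrace high, and 12.03, 34.6, 12.4, 18.1 and 23.8 CPM in Duroc low. Duroc high boars ranged from 26.5 to 79.7 CPM with a median of 31.9 CPM. Duroc low 2 lay above the median of the high DFI boars of its breed and was the only low DFI Duroc boar inside their range. The log2 fold change of high against low DFI was 0.83 (SE 0.21) in Landrace and 0.94 (SE 0.35) in Duroc, the latter 0.60 without Duroc high 4 and 1.23 without Duroc low 2.

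COL1A1 encodes the alpha 1 chain of type I collagen, and its row was the lowest of the 5. It held 23 to 370 counts per boar, which was 0.93, 0.54, 0.92, 0.93 and 0.90 CPM in Landrace low and 2.05, 2.16, 1.33 and 1.41 CPM in Landrace high. The Duroc low boars had 1.11, 2.30, 0.77, 0.86 and 1.50 CPM, and the Duroc high boars 1.54 to 7.67 CPM with a median of 2.50 CPM. COL1A1 exceeded 1 CPM in all 4 Landrace high boars and in none of the 5 Landrace low boars. It therefore missed the filter of the Landrace fit, which asked for 5 of 9 boars, and would have passed only if a low DFI boar had reached that level. In the fit of all 20 boars, where it passed with 13 boars, the Landrace log2 fold change was 1.02 (SE 0.41). In the Duroc fit, which it passed with 9 of 11 boars, the log2 fold change was 1.30 (SE 0.43), or 0.82 without Duroc high 4. All 4 Landrace high and all 6 Duroc high boars exceeded 1 CPM, enough to meet both of these filters without any low DFI boar. The gene table pairs the symbol COL1A1 with another identifier, which is absent from the counts. How much of the gene this annotated row covers was not tested, and levels of different genes were not compared because transcript lengths were not used here.

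COL14A1 encodes the chain of type XIV collagen, which binds the fibril surface. It was at 4.18, 2.84, 4.18, 4.78 and 6.06 CPM in Landrace low and at 7.41, 6.27, 7.61 and 7.90 CPM in Landrace high. It was at 2.46, 11.2, 8.11, 8.18 and 7.04 CPM in Duroc low, and from 9.37 to 15.3 CPM, with a median of 11.1 CPM, in Duroc high. Apart from Duroc low 1, every Duroc low boar had more COL14A1 than the highest Landrace low boar. The log2 fold change of high against low DFI was 0.73 (SE 0.20) in Landrace and 0.65 (SE 0.28) in Duroc, and leaving out Duroc low 1 brought the Duroc value to 0.43.

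BMP1, the procollagen C-proteinase, varied less than the collagen genes within both Duroc groups. It was at 54.3, 54.2, 40.9, 69.0 and 44.5 CPM in Landrace low, at 84.2, 121, 87.7 and 76.2 CPM in Landrace high, and at 44.3, 58.3, 39.3, 57.5 and 55.1 CPM in Duroc low. In Duroc high it ranged only from 62.3 to 77.2 CPM, with a median of 72.3 CPM, and all 6 boars lay above every Duroc low boar. The coefficient of variation in this group was 9.49%, against 86.0% for COL3A1 in the same boars. The log2 fold change of high against low DFI was 0.81 (SE 0.17) in Landrace and 0.48 (SE 0.11) in Duroc.

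By median, the 4 groups came in the same order for COL1A1 and COL1A2: Landrace low, Duroc low, Landrace high, Duroc high. For COL3A1 the low groups changed places, with medians of 28.2 CPM in Landrace and 27.6 CPM in Duroc. For COL14A1 the order was Landrace low, Landrace high, Duroc low and Duroc high, and for BMP1 it was Landrace low, Duroc low, Duroc high and Landrace high. Neighbouring groups in these orders overlapped, except Landrace low and Landrace high for COL3A1 and COL14A1 and Duroc low and Duroc high for BMP1.

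The Duroc log2 fold change of high against low DFI exceeded that of Landrace by 0.27 (SE 0.54) for COL1A1, 0.12 (SE 0.45) for COL1A2 and 0.29 (SE 0.59) for COL3A1. The same difference was -0.07 (SE 0.37) for COL14A1 and -0.33 (SE 0.21) for BMP1. Each of the collagen differences was smaller than its standard error, and these differences were not tested because they rest on the contrast that chose the genes. Among the 6 Landrace boars of the shared number range alone, the Landrace log2 fold changes were 1.23 for COL1A1, 1.15 for COL1A2, 1.24 for COL3A1, 1.07 for COL14A1 and 0.77 for BMP1. The other 3 Landrace boars were all low DFI boars, so that no value could be had among them.

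The breed comparison asked whether the genes differed between Duroc and Landrace boars of like DFI group. It was not the contrast that chose them, but it uses the same counts. COL1A1 was listed in Duroc only, and COL1A2 and COL14A1 in Landrace only. A gene listed for its level in the high DFI boars of 1 breed is not fully free of that choice here. None of the 5 genes passed at an adjusted p of 0.05 in edgeR's quasi-likelihood test, where 4.92% of all genes passed at low DFI and 5.73% at high DFI. At an unadjusted p under 0.05, 1 of the 5 genes passed at low DFI, against 18.8% of all genes, and 3 of 5 passed at high DFI, against 23% of all genes. The 1 at low DFI was 0 without Duroc low 2 or against the Landrace boars outside the shared number range, and 2 without Duroc high 4. The 3 at high DFI were 1 without Landrace high 2 or Duroc high 4, and 2 without Landrace high 3 or 4. The likelihood ratio test and DESeq2 also gave 0 of 5 adjusted calls in either comparison, where they called 5.27% and 7.48% of all genes at low DFI and 5.71% and 9.41% at high DFI.

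COL14A1 was higher on average in Duroc in both DFI groups. At low DFI its mean was 7.39 ± 3.15 CPM (SD, n = 5) in Duroc and 4.41 ± 1.17 CPM (SD, n = 5) in Landrace, a log2 difference of 0.74 (95% interval 0.18 to 1.30, quasi-likelihood adjusted p = 0.118). The lack of a call depended on Duroc low 1: without that boar the difference was 0.97 with an adjusted p of 0.00563. Leaving out Duroc low 2 instead gave a difference of 0.54 with an adjusted p of 0.288. Against the 3 Landrace low boars outside the shared number range it was 0.56 (adjusted p = 0.438). At high DFI the means were 11.7 ± 2.14 CPM (SD, n = 6) in Duroc and 7.30 ± 0.714 CPM (SD, n = 4) in Landrace, and all 6 Duroc boars lay above all 4 Landrace boars. The share of all genes that separated the breeds in this way was not counted, so whether this is unusual was not tested. The log2 difference was 0.68 (95% interval 0.10 to 1.25, adjusted p = 0.142). In a fit of the 10 high DFI boars alone it was 0.68 with an adjusted p of 0.0293, and without Duroc low 1, whose spread enters the shared dispersion, it was 0.68 with an adjusted p of 0.0371.

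The 3 fibrillar collagen genes had higher means in Duroc than in Landrace within both DFI groups, by less than their spread allowed to call. At low DFI the log2 difference of Duroc against Landrace was 0.64 for COL1A1 (95% interval -0.18 to 1.46, adjusted p = 0.408), 0.28 for COL1A2 (-0.39 to 0.95, adjusted p = 0.709) and 0.39 for COL3A1 (-0.50 to 1.27, adjusted p = 0.694). At high DFI it was 0.91 for COL1A1 (0.11 to 1.72, adjusted p = 0.158), 0.40 for COL1A2 (-0.28 to 1.09, adjusted p = 0.493) and 0.68 for COL3A1 (-0.23 to 1.59, adjusted p = 0.362). Of these 6 intervals, 5 include 0, all but that of COL1A1 at high DFI. The low DFI value of COL1A1 exists only because the high DFI boars carried the gene past the filter. In a fit of the low DFI boars alone it missed the filter. A single boar carried much of the high DFI values: without Duroc high 4 they were 0.44 for COL1A1, 0.06 for COL1A2 and 0.07 for COL3A1. At low DFI, leaving out Duroc low 2 took the COL1A2 difference from 0.28 to -0.0046 and that of COL1A1 to 0.33. The COL3A1 difference at low DFI was 0.17 without Duroc low 5 and 0.22 without Duroc low 2.

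BMP1 was not higher on average in Duroc. At low DFI the breeds had nearly the same level, 50.9 ± 8.55 CPM (SD, n = 5) in Duroc and 52.6 ± 10.9 CPM (SD, n = 5) in Landrace, with a log2 difference of -0.05 (95% interval -0.35 to 0.26, adjusted p = 0.91). At high DFI Duroc boars had 71.0 ± 6.74 CPM (SD, n = 6) and Landrace boars 92.2 ± 19.6 CPM (SD, n = 4), a log2 difference of -0.38 (95% interval -0.69 to -0.07, unadjusted p = 0.0175, adjusted p = 0.126 in the quasi-likelihood test). Of the 6 Duroc high boars, 3 lay below every Landrace high boar. Without Landrace high 2, the highest boar at 121 CPM, the difference was -0.22, the value closest to 0 among the omissions of single boars.

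**Figure D2:**
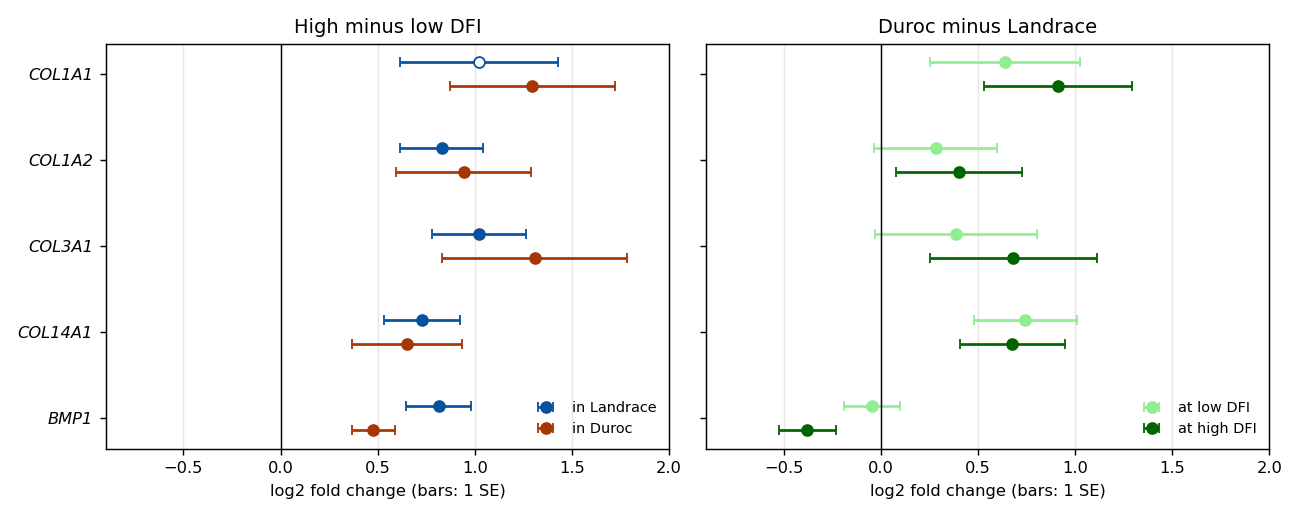
Log2 fold changes of the 5 genes with bars of 1 standard error: high minus low DFI in each breed on the left, Duroc minus Landrace in each DFI group on the right. The open circle for COL1A1 in Landrace comes from the fit of all 20 boars, and BMP1 is the only gene whose Duroc minus Landrace values lie below 0 (-0.05 and -0.38).

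Ratios of counts within a library are free of library size and of normalization. Of 10 exact two-sided permutation tests of ratios between the breeds, 2 gave an unadjusted p under 0.05, both at high DFI. For 10 tests a Bonferroni threshold would be 0.005, below the smallest p that 6 against 4 boars can give (0.00952).

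The ratio of BMP1 to COL1A1 was lower on average in Duroc in both DFI groups, with an unadjusted p under 0.05 in the exact permutation test at high DFI only. COL1A1 was listed in Duroc only, so this ratio is not fully free of the choice of genes. At high DFI the ratio of BMP1 to COL1A1 counts was 41.2, 55.9, 65.8 and 54.2 in the Landrace boars and 10.1 to 42.2 in the 6 Duroc boars. Duroc high 5, at 42.2, was the only Duroc boar above the lowest Landrace boar. The geometric means were 53.5 and 25.4, a log2 difference of -1.08 (exact permutation test, p = 0.019), and p stayed between 0.0159 and 0.0476 when each boar was left out in turn. At low DFI the geometric means were 62.4 in Landrace and 41.8 in Duroc, a log2 difference of -0.58 (exact permutation test, p = 0.111). From low to high DFI the mean log2 ratio changed by -0.22 in Landrace and by -0.72 in Duroc, which is given as a description.

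The ratio of COL1A1 to COL1A2 counts varied less than the level of either gene. COL1A1 was counted at 0.0448 to 0.0636 of COL1A2 in Landrace low and at 0.0537 to 0.0668 in Landrace high, and at 0.0475 to 0.0924 in Duroc low and 0.0581 to 0.0963 in Duroc high. Over single boars the ratio thus ran from 0.0448 to 0.0963, while COL1A2 itself varied from 12.03 to 79.7 CPM. Over the 4 groups the geometric mean of the ratio was 0.0507 to 0.0779, beside mean COL1A2 levels of 16.6 to 38.9 CPM. Between the breeds the log2 difference of this ratio was 0.38 at high DFI (exact permutation test, p = 0.0381) and 0.35 at low DFI (exact permutation test, p = 0.0873). COL1A1 was listed in Duroc only and COL1A2 in Landrace only, so this ratio is not fully free of the choice of genes either. At high DFI the call was lost in 9 of 10 omissions of single boars, with p between 0.0159 and 0.0952. These ratios compare annotated rows, and a sequence difference between the breeds that affects mapping to COL1A1 was not tested.

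With all boars, none of the 4 tests of the ratio of type III to type I collagen between the breeds gave a p under 0.05. COL3A1 counts were 1.43 to 1.98 times those of COL1A2 in Landrace low, 1.65 to 2.24 times in Landrace high, 1.38 to 2.48 times in Duroc low and 1.58 to 3.15 times in Duroc high. The log2 difference between the breeds was 0.09 at low DFI (exact permutation test, p = 0.635) and 0.13 at high DFI (exact permutation test, p = 0.552). For COL3A1 to COL1A1 it was -0.27 (exact permutation test, p = 0.127) and -0.25 (exact permutation test, p = 0.171). Without Duroc low 5 the former was -0.39 (exact permutation test, p = 0.0159), and without Landrace high 4 the latter was -0.37 (exact permutation test, p = 0.0476). For COL14A1 to COL1A1 it was 0.09 (exact permutation test, p = 0.905) and -0.05 (exact permutation test, p = 0.914). The ratio of COL14A1 to COL1A1 counts itself ranged from 1.99 in Duroc high 4 to 10.5 in Duroc low 3.

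**Figure D3:**
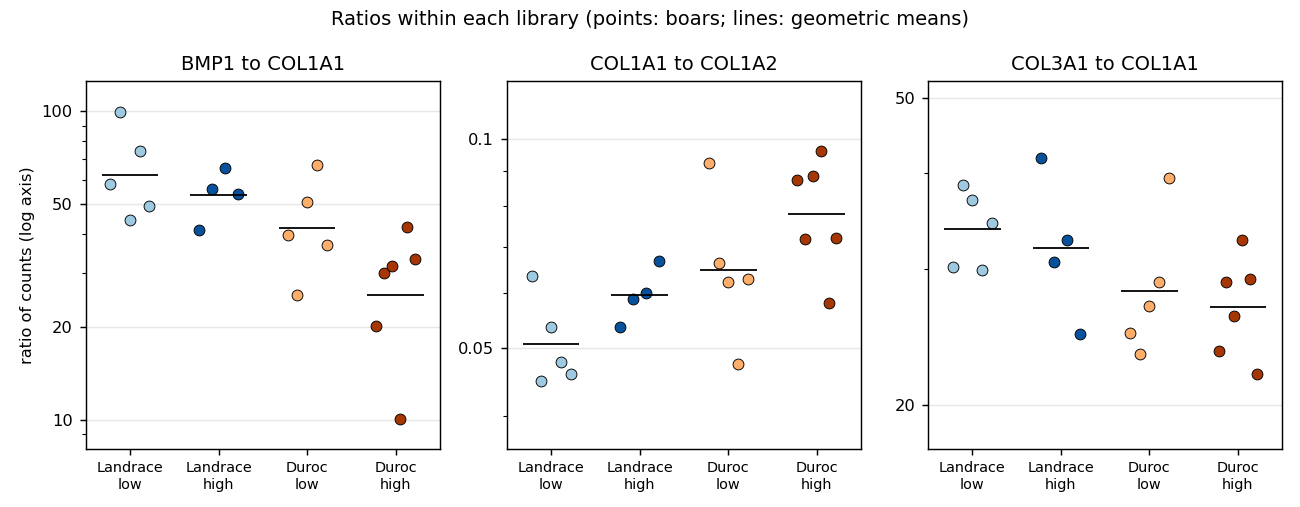
Ratios of counts within each library on log axes, with 1 point per boar and lines at the geometric mean of each group. BMP1 to COL1A1 fell to 10.1 in Duroc high 4, while COL1A1 to COL1A2 stayed between 0.0448 and 0.0963 in all 20 boars.

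To ask whether the genes moved together from boar to boar, the mean of each of the 4 groups was taken off the log2 CPM, which removes the contrast that chose the genes. In these deviations the 3 fibrillar collagen genes formed a tight set. Pearson's r over 20 boars was 0.93 for COL1A1 and COL3A1 (Spearman's rho 0.94, permutation p = 2e-05 for both), 0.90 for COL1A1 and COL1A2 (rho 0.83, permutation p = 8e-05 for r and 0.00032 for rho) and 0.91 for COL1A2 and COL3A1 (rho 0.87, permutation p = 0.00011 for r and 0.0001 for rho). The p-values are unadjusted for the 10 pairs of genes. The smallest value that 100000 resamples could give was 1e-05.

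The set did not rest on Duroc high 4. Without the 2 boars farthest from the median of the first gene, Duroc high 4 and Duroc low 2, r was 0.87 for COL1A1 and COL3A1, 0.75 for COL1A1 and COL1A2 and 0.84 for COL1A2 and COL3A1. Within the 9 Landrace boars the same pairs had r of 0.83, 0.88 and 0.90 (exact permutation p = 0.0309, 0.0319 and 0.0122) and rho of 0.80, 0.78 and 0.92 (exact permutation p = 0.0688, 0.0799 and 0.0167). Within the 11 Duroc boars they had r of 0.95, 0.91 and 0.91 (exact permutation p = 0.000359, 0.00176 and 0.00223) and rho of 0.92, 0.75 and 0.82 (exact permutation p = 0.00088, 0.0204 and 0.00565).

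COL14A1 and BMP1 followed this set less closely. COL14A1 had r of 0.36 with COL1A1 (rho 0.23, permutation p = 0.17 and 0.35), 0.55 with COL1A2 (rho 0.37, permutation p = 0.0246 and 0.12) and 0.32 with COL3A1 (rho 0.26, permutation p = 0.195 and 0.29). BMP1 had r of 0.35 with COL1A1 (rho 0.44, permutation p = 0.101 and 0.0725), 0.46 with COL1A2 (rho 0.51, permutation p = 0.0421 and 0.0419) and 0.33 with COL3A1 (rho 0.40, permutation p = 0.125 and 0.0968). Between COL14A1 and BMP1 r was 0.13 (rho 0.17, permutation p = 0.669 and 0.526). Without the 2 farthest boars, Duroc high 4 and Duroc low 2, r of COL1A2 with COL14A1 was 0.36 (permutation p = 0.307) and no longer held. That of COL1A2 with BMP1 was 0.42 (permutation p = 0.147), close to its value over all boars but no longer under 0.05 with fewer boars.

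**Figure D4:**
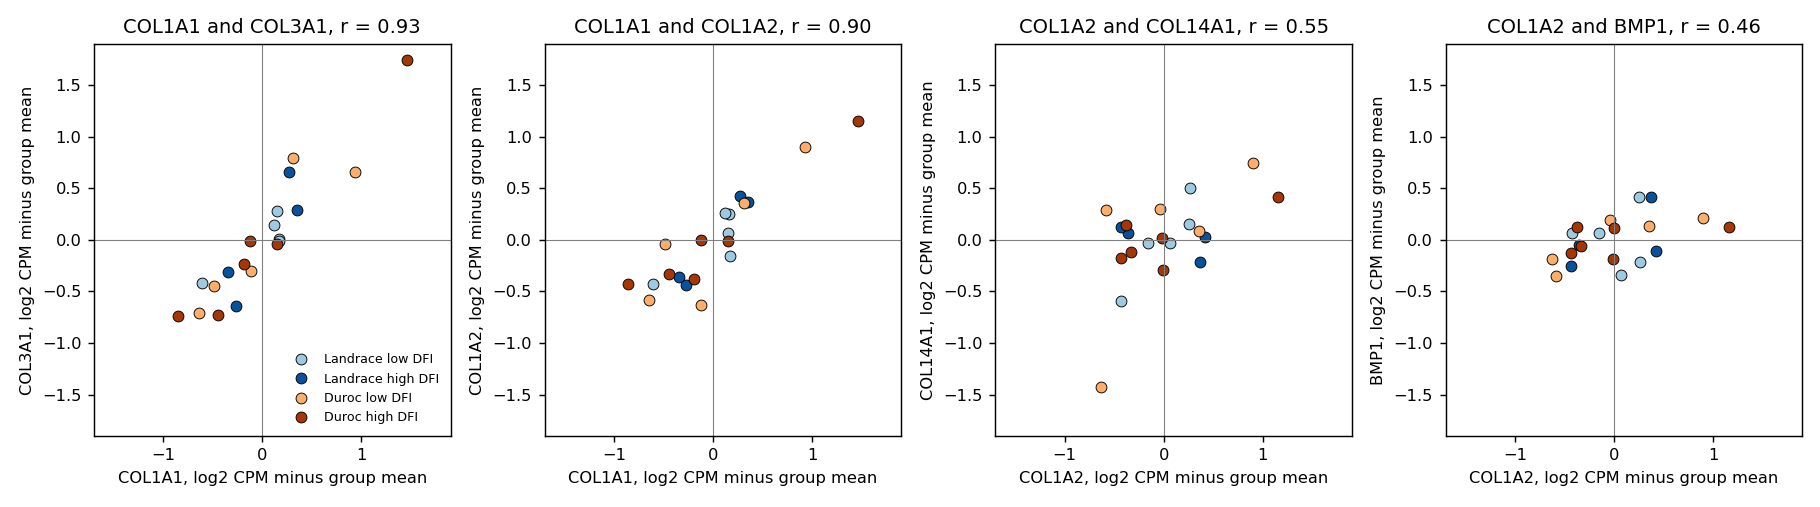
Deviations of single boars from their group mean in log2 CPM for 4 pairs of genes, with colours for the breed and DFI groups. COL3A1 and COL1A2 follow COL1A1 closely (r = 0.93 and 0.90), with Duroc high 4 at the upper end, whereas COL14A1 and BMP1 scatter widely around COL1A2 (r = 0.55 and 0.46).

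Among the 14635 other genes tested, COL3A1 ranked the third and COL1A2 the fifth closest to COL1A1, while COL14A1 ranked 2240 and BMP1 ranked 2411. Seen from COL1A2, COL14A1 ranked 542 and BMP1 ranked 1143, and seen from COL3A1 they ranked 2769 and 2747. The median r of all genes with COL1A1 was 0.02. The rows without a symbol in the gene table, ENSSSCG00000021943 and ENSSSCG00000029074, were the closest to both COL1A1 (r = 0.95 for each) and COL1A2 (r = 0.94 for each) and ranked the second and the fourth for COL3A1 (r = 0.93 and 0.92). ENSSSCG00000017579 was the fourth for COL1A1 and for COL1A2 (r = 0.91 for each). ENSSSCG00000021015 was the third for COL1A2 (r = 0.93) and the fifth for COL3A1 (r = 0.91). The closest gene to COL3A1 was COL5A2 (r = 0.94), which encodes a chain of type V collagen, the fibrillar collagen at the core of type I fibrils. Without Duroc high 4 these r ranged from 0.84 to 0.91 and COL5A2 still ranked 1 for COL3A1.

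Of the 5 nearest genes of COL14A1 and of BMP1, 2 each had a symbol, none of them a collagen, and 3 each had no symbol in the gene table. For COL14A1 they were ENSSSCG00000023980 (r = 0.79), ESRRA (r = 0.78), which encodes an orphan nuclear receptor of energy metabolism, ENSSSCG00000021019 (r = 0.73), MED1 (r = 0.71), a subunit of the Mediator complex of transcription, and ENSSSCG00000006101 (r = 0.68). For BMP1 they were ENSSSCG00000021154 (r = 0.88), SUMF2 (r = 0.87), a protein of the endoplasmic reticulum related to the sulfatase-modifying enzyme, NUMB (r = 0.86), a regulator of Notch signalling, ENSSSCG00000013424 (r = 0.86) and ENSSSCG00000004557 (r = 0.85). For COL14A1 the highest-ranked of the other 4 genes was COL1A2 at 58, and for BMP1 it was also COL1A2, at 1788. These likenesses are over 20 boars and are given as a description.

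Within the groups, no relation of the genes with DFI was detected over the 20 boars. After the group means were removed, Pearson's r with the DFI of the labels was 0.06 for COL1A1, -0.10 for COL1A2, -0.07 for COL3A1, 0.07 for COL14A1 and -0.12 for BMP1, with permutation p of 0.598 to 0.807 for the 5 relations. Spearman's rho ranged from -0.16 to 0.22 (permutation p of 0.317 to 0.967). Without the 2 farthest boars, Duroc high 4 and a Duroc low boar, r was -0.55 for COL1A2 (permutation p = 0.0463) and -0.57 for COL3A1 (permutation p = 0.0339). These p-values are unadjusted for the 5 relations, and the negative relation was not detected over all 20 boars. DFI in the Duroc low group spanned only 1.05% to 1.13%, and these boars add little to any such relation.

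Other genes of fibril building were compared as lists chosen with earlier results of these data known. Of 82 symbols, 66 had a row in the files, and 59 were tested in Landrace and 60 in Duroc. In high against low DFI boars no gene of these lists passed at an adjusted p of 0.05 in the quasi-likelihood test, where 0% of all genes passed in Landrace and 0.0136% in Duroc. At an unadjusted p under 0.05, 22 of 59 (37.3%) were higher and 0 lower in Landrace, and 19 of 60 (31.7%) were higher and 2 lower in Duroc. Over all genes, 12.1% were higher at that threshold in Landrace and 11.3% in Duroc. The likelihood ratio test gave 13 adjusted calls in these lists in Landrace, where it called 5.28% of all genes, and 5 in Duroc, where it called 2.56%. DESeq2 gave 15 and 7, and called 5.8% and 5.93% of all genes. The median log2 fold change of the pooled lists was 0.28 in both breeds, against -0.01 over all genes in Landrace and 0.01 in Duroc. Single lists differed. Propeptide removal and crosslinking had the lowest median in both breeds, 0.05 in Landrace and 0.12 in Duroc. The highest was 0.77 for collagen degradation in Landrace and 0.46 for fibril-binding proteins in Duroc. Several of these genes are on the study's own lists from the same libraries, so the counts are not independent of it. Without Landrace high 2 the Landrace count was 14, and without Duroc high 4 the Duroc count was 15.

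The values that follow are log2 fold changes of high against low DFI, each with its quasi-likelihood adjusted p, and none passed. They are the genes of smallest p in each list, with a few counterparts from the other breed. Of the other fibrillar collagens, COL5A2 was at 0.47 in Landrace (adjusted p = 0.129) and 0.52 in Duroc (adjusted p = 0.154), and COL5A3 at 0.83 (adjusted p = 0.128) and 0.85 (adjusted p = 0.154). COL5A1 was at 0.74 in Landrace (adjusted p = 0.116) and 0.56 in Duroc (adjusted p = 0.337). These 3 genes encode the chains of type V collagen. Of the fibril-associated and beaded-filament collagens, COL6A1, a chain of the microfibrillar type VI collagen, was at 0.53 (adjusted p = 0.202) and 0.83 (adjusted p = 0.113). COL12A1, which like COL14A1 encodes a fibril-associated collagen, was at -0.20 in Landrace (adjusted p = 0.437) and -0.32 in Duroc (adjusted p = 0.159). COL21A1, another fibril-associated collagen, was at 0.50 in Landrace (adjusted p = 0.378).

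Of the enzymes that modify procollagen, PLOD1 and PLOD2, lysyl hydroxylases that prepare crosslinking, were at 0.55 (adjusted p = 0.0972) and 0.63 (adjusted p = 0.0972) in Landrace, and PLOD1 at 0.42 (adjusted p = 0.113) and P3H1, a prolyl hydroxylase, at 0.24 (adjusted p = 0.173) in Duroc. Of the enzymes that act after secretion, ADAMTS2, which removes the N-terminal propeptide that BMP1 leaves, was at 0.73 in Landrace (adjusted p = 0.0972) and 0.68 in Duroc (adjusted p = 0.134). PCOLCE2, an enhancer of BMP1, was at 1.09 in Landrace (adjusted p = 0.154), and TLL2, a protease of the BMP1 family, was at -0.29 in Duroc (adjusted p = 0.252). For ADAMTS2 the means were 12.9 and 7.78 CPM in Landrace high and low, and 12.4 and 7.73 CPM in Duroc.

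Of the fibril-binding proteins, BGN (biglycan) was at 0.94 in Landrace (adjusted p = 0.127) and 0.78 in Duroc (adjusted p = 0.126), FN1 (fibronectin) at 1.03 (adjusted p = 0.115) and FMOD (fibromodulin) at 1.11 (adjusted p = 0.125) in Landrace, and DCN (decorin) at 0.49 (adjusted p = 0.141) in Duroc. ITGA1, an integrin chain that binds collagen, was at 0.73 (adjusted p = 0.0972) and 0.52 (adjusted p = 0.144), with DDR2, a collagen-binding kinase, at 0.52 in Landrace (adjusted p = 0.269) and ITGB1, the partner chain of ITGA1, at 0.14 in Duroc (adjusted p = 0.18). Of the degrading enzymes, the serine protease FAP was at 1.41 in Landrace (adjusted p = 0.106) and 1.03 in Duroc (adjusted p = 0.159). MMP13, a collagenase, was at -0.48 in Duroc (adjusted p = 0.112), and MMP2, a gelatinase, was at 0.41 in Landrace (adjusted p = 0.524). In signalling, the receptor PDGFRB was at 0.81 (adjusted p = 0.102) and 0.89 (adjusted p = 0.134), the growth factor TGFB3 at 1.19 in Landrace (adjusted p = 0.116) and the TGF-beta mediator SMAD3 at 0.33 in Duroc (adjusted p = 0.128).

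**Figure D5:**
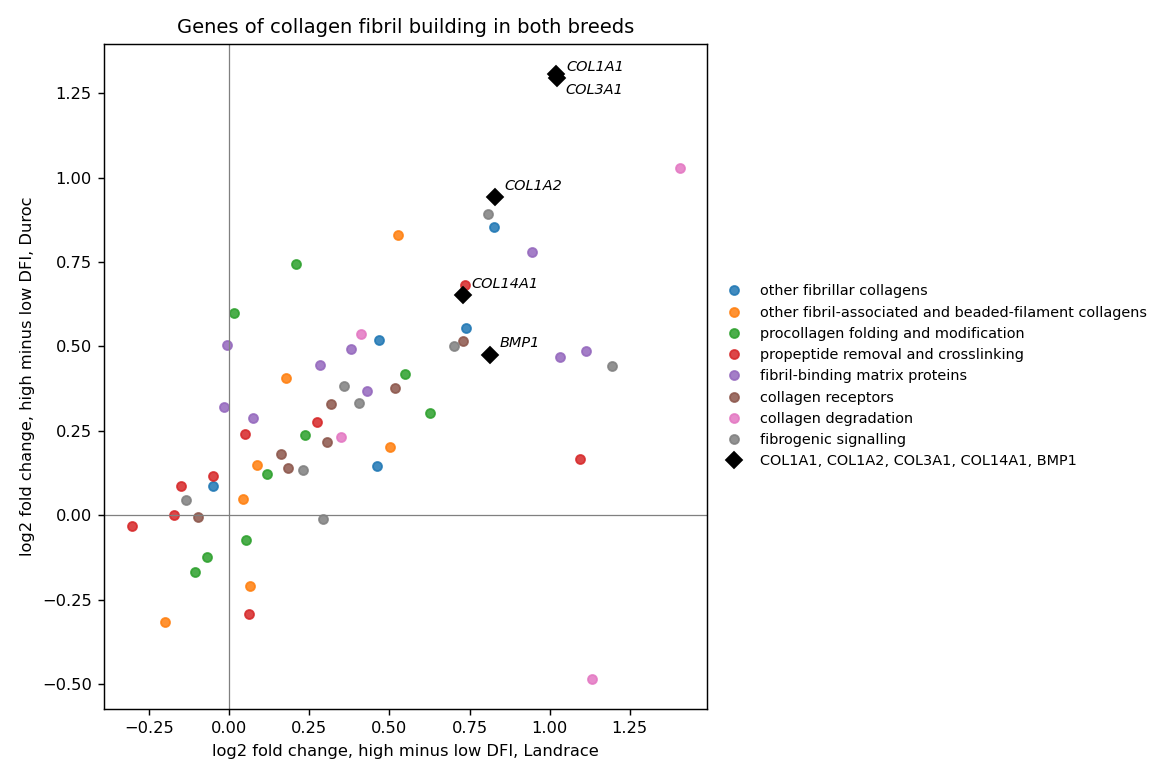
Log2 fold change of high against low DFI in Landrace (horizontal) and Duroc (vertical) for the 58 listed genes with a value in both breeds, coloured by list, with the 5 genes of the collagen fibril as diamonds. Of the genes tested, 46 of 59 lie above 0 in Landrace and 49 of 60 in Duroc; the value for COL1A1 in Landrace comes from the fit of all 20 boars.

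Between the breeds, 58 of the listed genes were tested. At low DFI 2 passed adjustment, where 4.92% of all genes did: COL9A1, a cartilage-type fibril-associated collagen, was higher in Duroc (log2 difference 0.83, adjusted p = 0.0232) and SMAD3 lower (-0.47, adjusted p = 0.0167). At high DFI 2 passed, where 5.73% of all genes did: SMAD3 was again lower in Duroc (-0.54, adjusted p = 0.0076), and so was TLL2, at 8.12 ± 1.40 CPM (SD, n = 6) in Duroc and 13.7 ± 3.16 CPM (SD, n = 4) in Landrace (-0.75, adjusted p = 0.00999). At an unadjusted p under 0.05, 8 of 58 genes (13.8%) passed at low DFI, 6 higher and 2 lower in Duroc, and 14 of 58 (24.1%) at high DFI, 6 higher and 8 lower. Both shares lay near those of all genes. The count of genes higher in Duroc at low DFI was 3 without Duroc low 1 and 3 against the Landrace boars outside the shared number range.

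In the other lists no gene passed between the breeds after adjustment, and the values that follow are log2 differences of Duroc against Landrace, each with its quasi-likelihood adjusted p. Among the fibrillar collagens COL27A1 was at 0.74 (adjusted p = 0.276) and COL11A1 at -0.28 (adjusted p = 0.379) at low DFI, and COL5A2 at 0.21 (adjusted p = 0.517) and COL27A1 at 0.43 (adjusted p = 0.527) at high DFI. COL6A3 was at 0.59 (adjusted p = 0.0548) and COL6A1 at 0.66 (adjusted p = 0.0845) at high DFI. Of the procollagen-modifying enzymes P4HA1 was at 0.15 (adjusted p = 0.271) and P4HA2 at -0.25 (adjusted p = 0.325) at low DFI, and PLOD2 at -0.35 (adjusted p = 0.134) and P4HA2 at -0.30 (adjusted p = 0.177) at high DFI. The TLL2 difference at low DFI was -0.40 (adjusted p = 0.166), and that of LOXL4, a lysyl oxidase, 0.34 (adjusted p = 0.242).

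Among the matrix-binding proteins FN1 was at 1.26 (adjusted p = 0.122) and POSTN (periostin) at -1.06 (adjusted p = 0.294) at low DFI, and FN1 at 0.70 (adjusted p = 0.387) and FMOD at -0.48 (adjusted p = 0.413) at high DFI. Of the receptors ITGA10 was at -0.22 (adjusted p = 0.459) and ITGB1 at 0.09 (adjusted p = 0.682) at low DFI, and ITGA1 at -0.36 (adjusted p = 0.229) and MRC2 at 0.22 (adjusted p = 0.62) at high DFI. MMP13 had the widest difference of the degrading enzymes, 9.01 ± 1.01 CPM (SD, n = 5) in Duroc low and 1.63 ± 2.03 CPM (SD, n = 5) in Landrace low (2.43, adjusted p = 0.0687 in the quasi-likelihood test), with MMP2 at 0.40 (adjusted p = 0.451). At high DFI MMP2 was at 0.53 (adjusted p = 0.252) and FAP at -0.63 (adjusted p = 0.346).

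By median, the summed markers of peritubular myoid, fibroblast-like, Leydig, endothelial and macrophage cells were higher at high DFI in both breeds. Those of both germ cell lists were lower, and those of Sertoli cells differed little. Most of these ranges overlapped between the DFI groups. The summed level of 6 of 7 markers of peritubular myoid cells, led by ACTA2, was 88.6 to 161 CPM in Landrace low and 157 to 261 CPM in Landrace high, and 99.9 to 191 CPM in Duroc low and 124 to 250 CPM in Duroc high. For fibroblast-like interstitial cells 3 of 7 markers had a row, led by DCN, and summed to 63.2 to 103 and 87.2 to 145 CPM in Landrace low and high and to 64.0 to 121 and 77.0 to 146 CPM in Duroc. The 5 of 7 Leydig cell markers summed to 1248 to 4119 CPM in Landrace low and 4505 to 11972 CPM in Landrace high without overlap, and to 792 to 5952 and 3336 to 7025 CPM in Duroc.

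Sertoli cell markers (6 of 7, led by CLDN11) summed to 291 to 360 CPM in Landrace low and 267 to 368 CPM in Landrace high, with medians of 318 and 327 CPM. In Duroc they summed to 309 to 370 CPM at low and 296 to 538 CPM at high DFI, with medians of 346 and 337 CPM. The highest value was again in Duroc high 4. Endothelial markers (4 of 7, led by EGFL7) summed to 54.7 to 83.9 and 69.8 to 137 CPM in Landrace low and high and to 57.0 to 101 and 83.5 to 130 CPM in Duroc low and high. Macrophage markers (5 of 7, led by ITGAM) summed to 6.29 to 9.14 and 7.48 to 17.6 CPM in Landrace and to 7.93 to 10.97 and 10.3 to 13.9 CPM in Duroc. Markers of spermatogonia and spermatocytes (7 of 8, led by SYCP3) summed to 728 to 859 and 686 to 750 CPM in Landrace low and high and to 706 to 822 and 602 to 696 CPM in Duroc low and high, without overlap in Duroc. Spermatid markers (8 of 8) summed to 11675 to 15612 and 10289 to 13881 CPM in Landrace and to 12417 to 16350 and 9190 to 12956 CPM in Duroc. No marker with a row stayed under 0.1 CPM in all 20 boars.

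Over the 20 boars, with group means removed, the fibrillar collagens went with the fibroblast-like list (r = 0.54 for COL1A1, 0.49 for COL1A2 and 0.55 for COL3A1) and against the list of spermatogonia and spermatocytes (r = -0.54, -0.65 and -0.55). The fibroblast-like genes with a row, DCN, LUM and PDGFRA, are also in the lists of fibril building above, so this list is not separate from them. With the peritubular myoid list r was 0.28, 0.28 and 0.22. It was 0.46, 0.33 and 0.43 with the Sertoli list (rho 0.16, -0.03 and 0.10), and -0.46, -0.39 and -0.46 with the spermatid list. With the macrophage list r was 0.30, 0.43 and 0.32, and rho was 0.44, 0.58 and 0.42. For COL1A2 this rho exceeded its rho with the fibroblast-like list (0.46). BMP1 went most with the Leydig list (r = 0.73, rho 0.69), which the collagens did not (r = 0.07 for COL1A1, 0.28 for COL1A2, 0.01 for COL3A1 and 0.21 for COL14A1). BMP1 also went with the macrophage (r = 0.57), peritubular myoid (r = 0.52) and endothelial (r = 0.47) lists. COL14A1 had its strongest relation with the list of spermatogonia and spermatocytes (r = -0.37). Duroc high 4, the boar with the most COL1A1, COL1A2 and COL3A1, also had the lowest sum of both germ cell lists, 602 and 9190 CPM, and the highest of the fibroblast-like list, 146 CPM. These correlations are 40 descriptions over libraries that share their total count, and the part of cell composition in the differences above was not tested.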

How the data were processed

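Testis RNA of 20 boars was sequenced by the authors as non-stranded short single reads, mapped with TopHat to pig genome build 10.2 and counted on Ensembl genes with HTSeq without strand. What was deposited are the raw counts, as whole numbers and not normalized. The lowest value in every file is 1, and how 0 was treated is not stated. The files list 21648 genes in Landrace and 21717 in Duroc, and the 21306 shared genes were used for fits of both breeds. Total counts set the precision, and intervals cover the spread between boars.

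Fits were made with edgeR 4.0.16 under R 4.3.3. Genes above 1 CPM in at least 10 of 20 boars (5 of 9 Landrace or 6 of 11 Duroc boars for the fits within a breed) were kept, which left 14636 genes over 20 boars, 14519 in Landrace and 14666 in Duroc. Libraries were scaled by the trimmed mean of M values (TMM). Breeds were compared in a fit of the 4 groups with shared dispersion, and DFI groups within each breed, with the quasi-likelihood test and Benjamini-Hochberg adjustment over all genes at 0.05. The standard error is the log2 fold change divided by the root of the F statistic. Ratios were tested by exact permutation of the boars of 1 DFI group between the breeds, and correlations by permutation within the breed and DFI groups. No libraries were found to share their counts (chi-square per degree of freedom of at least 17.3 within groups). The fit was tested on simulated data.

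The genes, lists and tests were chosen with earlier results of these data known. Named genes are the 5 genes of interest, the 5 genes closest to each by r, per list and comparison the genes with an adjusted p under 0.05 (at most 4) or the 2 of smallest p, and per marker list the gene of highest mean. COL5A2 and BGN in Landrace, COL5A1 in Duroc and COL12A1 in Landrace were added after their values were seen. Symbols came from a gene table, except COL1A1, whose identifier is that of the study. Alternatives were the likelihood ratio test, DESeq2 1.42.0, another scaling (RLE), other filters, subsets of boars and omission of each boar. Replicate numbers follow accession order and pair no boars. The DFI of the labels was used; for 4 Landrace boars the study's own table gives another value, not used here.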

Additional observations from a re-analysis of the deposited data

Results flagged for a closer look

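Of 20 combinations of gene and group, 4 held a boar whose gap to the nearest other boar was large for the range of its group; chance flags about 1 in 20 groups. Of these, 3 were the same boar, Duroc high 4, and the 3 genes vary together, so they are not separate events. In Duroc high 4, COL1A1 was at 7.67 CPM against 1.54 to 3.09 CPM in the other 5 boars of the group, COL1A2 at 79.7 CPM against 26.5 to 35.6 CPM, and COL3A1 at 251 CPM against 44.9 to 74.0 CPM. COL14A1 and BMP1 were highest in the same boar too, at 15.3 and 77.2 CPM, without standing apart.

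In Landrace low 2, COL1A1 was at 0.544 CPM against 0.902 to 0.932 CPM in the other 4 boars of its group, and rested on 23 counts.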

How the results depend on the processing

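Among 768 values under other settings, 698 kept their direction and side of the threshold or stayed within the set range; the causes of the rest were not tested. Genes passing adjustment between the breeds numbered 720 at low DFI, but 1095 with DESeq2, 358 against the Landrace low boars outside the shared number range and 455 to 856 with a boar left out (455 without Landrace low 5, 461 without Landrace low 1). At high DFI they numbered 838, but 1377 with DESeq2, 546 in the high DFI boars alone and 563 to 915 with a boar left out. Between DFI groups in Landrace the edgeR quasi-likelihood count was 0 (2417 before adjustment), but 767 in the likelihood ratio test, 842 in DESeq2, 324 in the fit of all 20 boars, 1 without a filter, 1 with at least 10 counts in every boar and 0 to 2 with a boar left out (2 without Landrace low 3). In Duroc 2 passed (3107 before adjustment), but 376 in the likelihood ratio test, 869 in DESeq2, 0 in the fit of all 20 boars and 0 to 17 with a boar left out (17 without Duroc low 5). COL1A1 gave no value in Landrace where its filter left it out.

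With a boar left out, the log2 difference between the breeds at low DFI ranged from 0.54 to 0.97 for COL14A1, from -0.0046 to 0.42 for COL1A2 and from -0.12 to 0.071 for BMP1, turning sign for COL1A2 without Duroc low 2 and for BMP1 without Landrace low 4 (0.071) or Duroc low 3 (0.033). For COL14A1 at high DFI it ranged from 0.58 to 0.74, with 0.68 in the high DFI boars alone. The differences between the breeds in the log2 ratio of COL1A1 to COL1A2 ranged from 0.23 to 0.47 at low and from 0.32 to 0.47 at high DFI. Those of COL3A1 to COL1A1 ranged from -0.39 to -0.20 and from -0.37 to -0.12, COL3A1 to COL1A2 from -0.022 to 0.19 and from 0.015 to 0.21 (0.015 without Duroc high 4), COL14A1 to COL1A1 from -0.14 to 0.42 and from -0.24 to 0.16, and BMP1 to COL1A1 from -0.75 to -0.40 at low DFI. Reversed values were -0.022 for COL3A1 to COL1A2 (without Duroc low 5), -0.14 and -0.10 for COL14A1 to COL1A1 at low DFI (without Duroc low 3 or 4), and 0.08, 0.08 and 0.16 at high DFI (without Landrace high 3, Landrace high 4 or Duroc high 4).

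The r of COL1A2 with COL14A1 was 0.36 without the 2 farthest boars, 0.35 in Landrace, 0.60 in Duroc and 0.52 without Duroc high 4. That of COL1A2 with BMP1 was 0.42, 0.28, 0.66 and 0.47, and none of these 8 values had a permutation p under 0.05. Without TMM factors they were 0.57 (permutation p = 0.0137) and 0.52 (permutation p = 0.0208). COL14A1 with BMP1 turned to -0.17 without the 2 farthest boars and -0.31 in Landrace. With DFI, r without the 2 farthest boars was -0.36 for COL1A1, -0.55 for COL1A2, -0.57 for COL3A1 and 0.047 for BMP1. The omission of Duroc high 4 from correlations and the counts of listed genes were added after seeing the data. No paired analysis was possible because the boars carry no shared numbers in the labels. COL1A1, with 23 to 370 counts per boar, was the least deeply counted gene.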
